A study of Mus musculus with 283 samples.

Results

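The 41 genes described here are a module of mitosis genes, chosen by symbol. They comprised 10 regulators of entry into and passage through mitosis, 7 genes of the spindle checkpoint and the anaphase-promoting complex, 7 of the centromere and kinetochore, 10 motors and spindle proteins, 3 of cytokinesis and 4 of chromatin and chromosome condensation. All 41 were found among the 45657 genes kept from the table of tumours and glands and among the 47453 of the cultured lines, and all 41 passed the filter on low values in each fit. The rule that picks them uses their names and no measured value, but the list was drawn up with earlier results of these data known.

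The study profiled bulk RNA of mouse mammary tumours, many of them models of triple-negative breast cancer (tumours without the oestrogen, progesterone and HER2 receptors), to compare models labelled sensitive or resistant to checkpoint therapy, that is, antibodies that block the inhibitory receptors CTLA4 and PD1 on T cells. There were 264 libraries of tissue, 9 of them normal mammary gland (5 BALB/c, 4 FVB) and the rest tumours of 26 models, and 6 cultured lines with 1 library each. Per the labels, the tumours of day 3 and day 7 were grown in the mammary site of matched hosts to a diameter of 5 mm. For the end-stage libraries no diameter is given. Treated mice were injected intraperitoneally with both antibodies (anti-PD1 at 10 mg per kg, anti-CTLA4 at 125 ug). Tumours were taken at day 3 (47 untreated and 29 treated libraries), day 7 (20 and 22) or end stage (108 and 29), and the header of the table calls all 47 untreated day 3 libraries pretreatment.

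The models with both arms were T11, T11-UV and T11-Apobec (BALB/c), KPB25L and KPB25L-UV (FVB), and the p53 models p53-2225L and p53-2336R. KPB25L-Apobec had untreated tumours at day 3 only. T11-UV, T11-Apobec, KPB25L, KPB25L-UV and KPB25L-Apobec are labelled sensitive, and T11, p53-2225L and p53-2336R resistant, as are KPB-1A, p53-2153F, p53-2224L and p53-9263-3, which had untreated day 3 tumours that enter the comparison of classes. KPB-Primary and some libraries of KPB-1A and KPB-1B are labelled K14-Cre with floxed Brca1 and p53. KPB-Primary, KPB-1B, C3-TAG, PyMT and ILC-Pik3Ca/Cdh1Null (ILC below) were untreated end-stage tumours of unknown response. The labels do not give ages, and each cultured line or transplanted model is 1 derivative of its parent, so a difference between a parent and its derivative rests on that derivative. In 6 of 27 libraries labelled KPB25L-UV, transcripts that mark T11 tumours were present. The mean of these markers was 8.84 and 8.75 in untreated day 7 replicates 3 and 4 and 8.59 in untreated end-stage replicate 2. These values lay within the range of T11-UV tumours, 7.94 to 9.27. It was 6.44 in untreated day 3 replicate 3, and 6.86 and 7.25 in treated day 7 replicates 1 and 5. The therapy, growth and day 3 results that use these libraries are given with and without them. The end-stage differences from the glands, of KPB25L-UV and of the mean over models, use 1 of them and are given only with it included. The 4 treated KPB25L-UV libraries of end stage carry the same mouse numbers in their labels as the 4 treated T11-UV libraries of day 7. Their T11 marker means were 1.42 to 3.24 and 8.25 to 9.08 in turn, on either side of the midpoint of 5.92 used to tell T11 from KPB25L tumours.

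In the cell division cycle, the kinase Cdk1 with cyclins A and B drives the cell into mitosis, and the transcription factor Foxm1 with the MuvB complex switches on a shared set of genes in G2 phase, many of them in this module. The kinetochore couples chromosomes to the spindle, the checkpoint proteins hold back the anaphase-promoting complex until all chromosomes are attached, and Cdc20 and Ube2c then allow separation and the fall of the cyclins. These transcripts are scarce in resting cells and are widely used as a measure of proliferation in breast tumours. In bulk tissue, fewer dividing cells and less mitotic RNA per cell cannot be told apart.

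The promoters are shown first because the members are known as targets of a shared promoter element, the cell cycle homology region (TTTGAA or TTCGAA), which is often found with CCAAT boxes, the sites of NF-Y. RefSeq promoters of mouse build GRCm38.p6 (250 bases before to 50 after the start, 300 bases) were matched by symbol to 35 of the 41 members, with 37 promoters. On either strand, TTTGAA was found in 27 of the 37 (73.0%), against 17.9% of all 32851 promoters in the table, TTCGAA in 3 (8.1%, against 1.6%) and CCAAT in 28 (75.7%, against 37.4%). A cell cycle homology motif and a CCAAT box occurred together in 25 promoters (67.6%, against 7.5% of all), and 6 held none of these letters: Nuf2, Nusap1, Melk, Mad2l1, Pttg1 and Birc5. TTCGAA is its own reverse complement, a CCAAT box can share its last letter with a TTTGAA, and a match describes the sequence and does not show a bound site. The 8 windows below belong to members of a panel of well-known proliferation genes and run from 150 bases before the start to 30 bases from it on, 180 bases, 5′ to 3′ on the gene's strand, with the motifs in capitals. Capitals mark TTTGAA (or, on the other strand, TTCAAA), likewise TTCGAA, and also CCAAT (or, on the other strand, ATTGG).
Mki67 (chr7:135716350-135716529, minus strand): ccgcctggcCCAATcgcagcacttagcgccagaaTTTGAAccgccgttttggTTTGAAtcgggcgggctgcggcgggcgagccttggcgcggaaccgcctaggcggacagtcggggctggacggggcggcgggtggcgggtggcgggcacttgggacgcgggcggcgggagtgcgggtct
Top2a (chr11:99024160-99024339, minus strand): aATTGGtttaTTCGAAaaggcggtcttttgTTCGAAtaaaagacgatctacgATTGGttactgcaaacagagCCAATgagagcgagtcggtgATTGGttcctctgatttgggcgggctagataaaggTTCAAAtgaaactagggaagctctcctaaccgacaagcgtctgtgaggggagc
Cdk1 (chr10:69352883-69353062, minus strand): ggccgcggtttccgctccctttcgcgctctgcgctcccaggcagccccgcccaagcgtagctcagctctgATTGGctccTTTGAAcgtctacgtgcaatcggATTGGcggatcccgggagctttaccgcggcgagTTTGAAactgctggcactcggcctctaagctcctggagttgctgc
Ccnb1 (chr13:100786457-100786636, minus strand): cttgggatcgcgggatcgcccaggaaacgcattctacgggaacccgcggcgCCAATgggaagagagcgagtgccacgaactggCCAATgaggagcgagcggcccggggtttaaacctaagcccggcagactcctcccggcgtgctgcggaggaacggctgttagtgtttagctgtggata
Ccnb2 (chr9:70421525-70421704, minus strand): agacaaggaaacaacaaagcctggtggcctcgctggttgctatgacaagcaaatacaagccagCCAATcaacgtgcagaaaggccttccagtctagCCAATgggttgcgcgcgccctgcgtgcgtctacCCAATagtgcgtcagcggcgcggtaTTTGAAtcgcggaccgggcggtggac
Plk1 (chr7:122159285-122159464, plus strand): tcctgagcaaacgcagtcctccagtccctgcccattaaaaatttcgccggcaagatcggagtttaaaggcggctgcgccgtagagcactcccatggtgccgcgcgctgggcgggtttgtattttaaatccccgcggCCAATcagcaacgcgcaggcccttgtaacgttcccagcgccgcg
Cdc20 (chr4:118437314-118437493, minus strand): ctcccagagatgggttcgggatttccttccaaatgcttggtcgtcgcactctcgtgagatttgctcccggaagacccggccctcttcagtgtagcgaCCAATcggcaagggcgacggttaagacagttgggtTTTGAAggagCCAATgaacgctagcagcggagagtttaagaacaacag
Birc5 (chr11:117849087-117849266, plus strand): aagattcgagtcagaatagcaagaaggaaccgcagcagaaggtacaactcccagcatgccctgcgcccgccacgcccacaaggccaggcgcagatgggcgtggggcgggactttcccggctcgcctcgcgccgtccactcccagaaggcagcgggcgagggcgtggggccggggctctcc
In these windows Top2a carried the most motif letters, with 3 cell cycle homology and 4 CCAAT matches. Mki67 and Cdk1 carried 2 cell cycle homology matches each, Ccnb1 and Plk1 had CCAAT alone, and Birc5 had none. The whole 300-base promoter of Plk1 also holds a TTTGAA match, outside its window. Birc5 and Pttg1, which lack the motifs, return below among the members that did not pass the test in treated tumours at day 7. Mad2l1, Nuf2, Nusap1 and Melk also lack them and passed it there, as did members with the motifs. Cdk1, Spc25 and Ube2c have them and did not pass.

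Values are upper-quartile scaled signal on a log2 scale after adding 1, and a member was called where its limma adjusted p, over all genes tested, was under 0.05. Estimated depth ran from 3.45 to 149.13 M reads per tumour or gland library (median 51.3 M) and from 36.11 to 76.63 M in the cultured lines. Of the 4 p53-2153F libraries, which enter the comparison of classes, replicates 1 and 2 were at 3.45 and 7.89 M. They had 16341 and 17835 genes above 0, against a median of 22159 over the tumour and gland libraries. One further property of each library is used below, the slope of its log2 signal on log2 coding length over 12227 genes outside the module. Each gene's mean over all tumour and gland libraries was first subtracted. A slope of 0 is thus the mean relation to length in these libraries. A negative slope means less signal for longer genes than that mean, per doubling of length. The slope is given because the members range from 402 bases of coding sequence (Cenpa) to 9531 (Mki67). Their differences moved with length in several comparisons.

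The first comparison sets the tumours against normal gland. All 41 members were higher in end-stage untreated tumours than in glands, as the mean over 13 models with 3 or more libraries, with a median difference of 3.66 and a range from 2.21 (Mad2l1) to 4.25 (Ccnb1), where 28.1% of all 21364 genes tested were called higher and their median was -0.07. Ccnb1, the cyclin that activates Cdk1 for mitosis, was at 10.62, 8.45, 7.77, 8.0 and 7.61 in the BALB/c glands and at 7.29, 7.95, 7.02 and 8.53 in the FVB glands. In KPB-Primary tumours Ccnb1 ran from 11.15 to 14.15 with a median of 12.53, and in C3-TAG tumours from 12.25 to 13.77 with a median of 13.34. All these tumours lay above all 9 glands, and the difference was 4.25 ± 0.19 (SE, adjusted p = 8.22e-37). Mad2l1, a checkpoint protein that binds Cdc20, differed least, by 2.21 ± 0.13 (SE, adjusted p = 1.92e-28).

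By role, the medians were 3.75 for the regulators, 3.34 for the checkpoint genes, 3.43 for centromere and kinetochore, 3.73 for motors and spindle, 3.73 for cytokinesis and 3.35 for chromatin. The largest member of the kinetochore group was Birc5 (4.1 ± 0.19), a subunit of the complex that corrects chromosome attachments, and among the motors and spindle it was Hmmr (4.18 ± 0.2), a spindle assembly factor. Of 51 other mitosis genes 50 were higher (median 3.24), and all 35 DNA replication genes were higher (median 1.97). Of the 16 core subunits and partners of the anaphase-promoting complex, which act throughout G1 and mitosis, 10 were higher and 1 lower (median 0.35), and of 14 cell cycle inhibitors 4 were higher and 7 lower (median -0.44), where 35.1% of all genes were called lower, so that the share of inhibitors called higher was near that of all genes. The glands also held other cells. Markers of adipocytes (8 of 8), B cells (7 of 7) and T cells (10 of 10) were all lower in tumours, with medians of -10.39, -8.57 and -6.08, and the part of tissue composition in the module's difference was not tested.

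The mean of the 41 members was 8.61 ± 1.07 (SD, n = 5) in BALB/c and 7.96 ± 0.59 (SD, n = 4) in FVB glands. Its values were 10.44, 8.26, 7.68, 8.49 and 8.16 in the BALB/c glands and 7.48, 7.99, 7.58 and 8.78 in the FVB glands, so that 1 BALB/c gland stood above the other 8. That gland also had the highest mean of the T cell markers (13.41, the others 8.18 to 12.05) and of the B cell markers (15.2, the others 8.42 to 12.22). Between the strains 3 members were higher in BALB/c, where 2.01% of all genes were: Plk1 (1.13 ± 0.32, adjusted p = 0.0259), Aurka (1.08 ± 0.32, adjusted p = 0.033) and Aurkb (1.05 ± 0.3, adjusted p = 0.028), all 3 mitotic kinases. Without that BALB/c gland 0 members were called, as without FVB gland 1 or 3. Without FVB gland 4, the highest of its strain, 10 were called, without BALB/c gland 3 there were 8 and without BALB/c gland 5 there were 6.

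**Figure D1:**
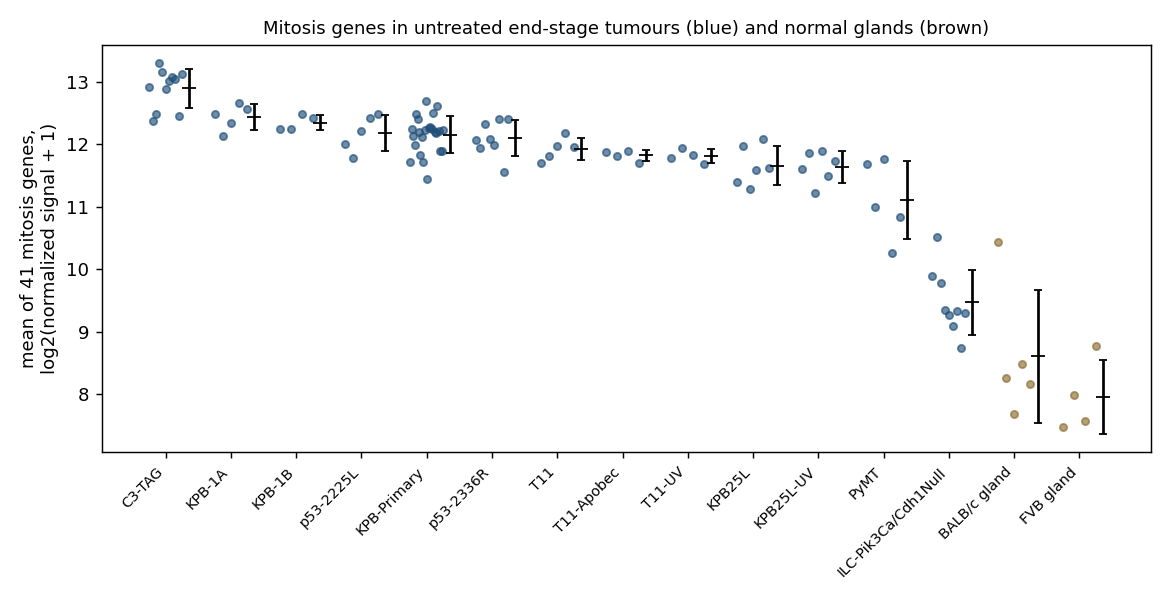
Mean log2(signal + 1) of the 41 members in each untreated end-stage tumour and gland library (points), by model, with group means. C3-TAG tumours lie highest with a mean of 12.9, ILC tumours lowest among tumours at 9.48, and the glands lie at 8.61 (BALB/c) and 7.96 (FVB).

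The models differed among themselves. Against the glands, all 41 members were higher in every model except ILC, where 37 were (19.7% of all genes called higher there). The share of all genes called higher ran from 19.3% (T11-Apobec) to 37.9% (KPB-Primary) in the other models. Median differences from the glands fell in the order C3-TAG 4.82, KPB-1A 4.25, KPB-1B 4.03, KPB-Primary 3.91, p53-2225L 3.89, p53-2336R 3.86, T11 3.74, T11-Apobec 3.65, T11-UV 3.63, KPB25L 3.42, KPB25L-UV 3.33, PyMT 2.89 and ILC 1.27. The module means were 12.9 ± 0.31 (SD, n = 11) in C3-TAG, 12.16 ± 0.3 (SD, n = 24) in KPB-Primary, 11.11 ± 0.62 (SD, n = 5) in PyMT and 9.48 ± 0.52 (SD, n = 9) in ILC. From KPB-1A to T11-UV, neighbouring models in this order differed by less than the larger of their SDs. The 11 end-stage models with 1 untreated library each lay between 11.08 (p53-T6) and 12.5, within the range of the single PyMT and C3-TAG libraries.

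PyMT, a model driven by the polyoma middle T antigen, served as the common reference for 3 primary models, so these contrasts share the PyMT libraries. In C3-TAG tumours, whose transgene encodes the SV40 early region, 38 members were higher than in PyMT (median 1.88), where 32.2% of all genes were called higher with a median of 0.22 over all genes. Aspm, a spindle pole protein, was at 10.84, 10.75, 11.6, 9.09 and 10.36 in PyMT and at 13.35 to 14.33, with a median of 13.87, in C3-TAG. The groups did not overlap, and the difference was 3.37 ± 0.29 (adjusted p = 1.48e-17). Cenpf, a kinetochore protein, was higher by 3.26 ± 0.31 (adjusted p = 1.86e-15) and Anln, the scaffold of the cleavage furrow, by 3 ± 0.23 (adjusted p = 9.65e-20). Mki67, the proliferation antigen that coats mitotic chromosomes, was higher by 2.14 ± 0.32 (adjusted p = 2.07e-08), with 15.53 to 16.51 in C3-TAG and 14.25, 14.05, 14.71, 12.79 and 13.86 in PyMT.

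The 3 members not called were Ube2c (-0.21 ± 0.31, adjusted p = 0.59), Birc5 (0.25 ± 0.28, adjusted p = 0.476) and Plk1 (0.43 ± 0.26, adjusted p = 0.16). Ube2c, the ubiquitin-conjugating enzyme of the anaphase-promoting complex, was at 12.56, 11.64, 12.34, 11.49 and 11.63 in PyMT and at 10.82 to 12.42, with a median of 11.84, in C3-TAG, so the groups lay over each other. Role medians were 1.35 for the regulators, 1.52 for the checkpoint genes, 1.89 for the kinetochore, 2.18 for motors and spindle, 2.51 for cytokinesis and 2.47 for chromatin. The differences moved with coding length: the median was 1.01 for members of at most 1290 bases, 1.88 for those between and 2.53 for those of at least 2859 bases, while other genes in the same ranges had medians of 0, 0.2 and 0.57. The length slope of the libraries was 0.36 ± 0.08 (SD) in C3-TAG and 0.14 ± 0.12 in PyMT. With the slope as a term in the fit, 39 members were higher with a median of 1.83, and Ube2c stood at 0.3, without a call. The PyMT and ILC libraries carry no flow cell in their names and the C3-TAG libraries were run on 3 others, so model and sequencing run cannot be told apart here.

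KPB-Primary tumours had 37 members higher than PyMT (median 1.04, 28.3% of all genes called higher). Anln was higher by 1.92 ± 0.21 (adjusted p = 2.92e-12), Aspm by 1.79 ± 0.26 (adjusted p = 2.87e-08) and Nuf2, of the Ndc80 complex that grips the microtubule end, by 1.74 ± 0.25 (adjusted p = 9.69e-09). The 4 members not called were Ube2c (0.24 ± 0.28), Ccnb2 (0.34 ± 0.23), Birc5 (0.51 ± 0.26) and Mki67 (0.63 ± 0.29), and Mki67 in KPB-Primary ran from 13.34 to 15.64 around a median of 14.55, across the PyMT range. Ube2c and Birc5 were thus uncalled in both contrasts, which share the PyMT libraries. After centring each library on its median, Aurkb, Ccnb1, Cdc20, Cdk1 and Plk1 lost their calls. With only the groups compared in the fit, Cdc20, Cdk1 and Plk1 lost theirs, as did Cdc20 without the filter. With the length slope as a term, Birc5 gained a call (0.61, adjusted p = 0.0353). The KPB-Primary libraries all carry named flow cells, so here too model and sequencing run cannot be told apart.

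In ILC tumours 40 members were lower than in PyMT (median -1.72, 20.9% of all genes called lower). Birc5 fell furthest, by 2.45 ± 0.29 (adjusted p = 2.85e-11). It was at 8.51 to 10.6, with a median of 9.15, in ILC and at 13.51, 11.75, 11.61, 11.16 and 11.2 in PyMT. Ube2c (-2.17 ± 0.32) and Cdc20 (-2.16 ± 0.28), the activator of the anaphase-promoting complex, followed. Pttg1, securin, which holds separase inactive until anaphase, was the member not called (-0.26 ± 0.27, adjusted p = 0.454), with 9.49 to 10.34 in ILC against 10.31, 9.77, 10.7, 10.08 and 9.94 in PyMT. In the same contrast the fibroblast (8 of 8), adipocyte (8 of 8), T cell (10 of 10) and B cell (7 of 7) markers were all higher in ILC, with medians of 4.34, 4.99, 4.99 and 5.72. Their part in the lower module was not tested. Length did not sort this contrast: the medians of the members from short to long were -1.83, -1.69 and -1.63.

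**Figure D2:**
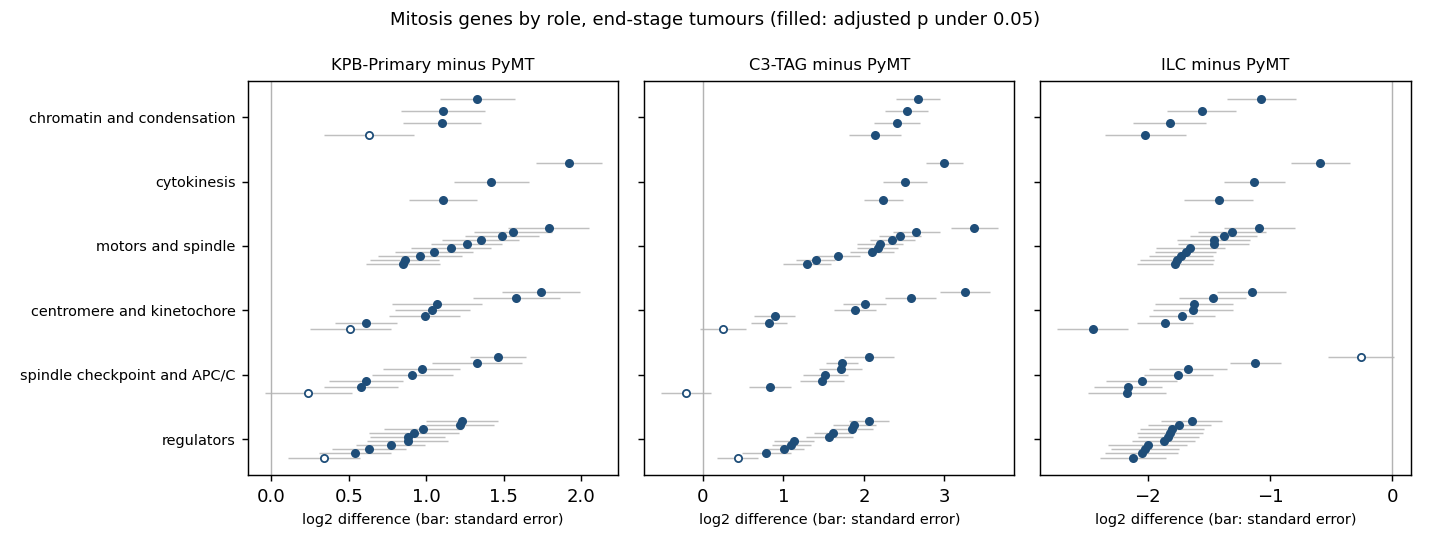
Difference of each member from PyMT (horizontal axis, log2 scale, bars are standard errors) in KPB-Primary, C3-TAG and ILC tumours at end stage, by role group (vertical axis), with filled points for adjusted p under 0.05. In C3-TAG the role medians run from 1.35 (regulators) to 2.51 (cytokinesis), and in ILC 40 of 41 members are called lower.

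From day 3 to end stage few members passed the test. As the mean of 7 untreated models, 0 members were called with limma (6 had an unadjusted p under 0.05) with a median of 0.14, where 5.35% of all genes were called, 1.06% higher and 4.29% lower. Without the libraries with T11 markers the count was 0 too, with 5 at an unadjusted p under 0.05. In T11, where 0.0144% of all genes were called, all of them lower, all 41 differences were positive (median 0.5), 0 were called and 15 had an unadjusted p under 0.05. When the fit held the T11 groups alone, 32 members were higher, but the share of all genes called in that fit is not given here. The module means in T11 were 11.45, 11.63, 11.31 and 11.44 at day 3 and 11.71, 11.82, 11.97, 12.18 and 11.96 at end stage, so that every end-stage library lay above every day 3 library, but the day 3 libraries were all on 1 flow cell, and with a flow cell term the median was -0.86.

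KPB25L-UV had 6 members higher at end stage (2.67% of all genes called higher): Ect2 (1.46 ± 0.38, adjusted p = 0.00394), the exchange factor that starts the cleavage furrow, Ccnb1 (1.23 ± 0.31, adjusted p = 0.00312), Nek2, Bub1b, Cdc20 and Cenpa. Ect2 was at 11.4, 9.68, 11.31 and 12.18 at day 3 and at 12.56, 12.56, 12.23, 13.2, 12.17 and 12.89 at end stage. The calls rested on the low second library: without KPB25L-UV day 3 untreated replicate 2 there were 0, without replicate 4 there were 15, without replicate 1 there were 2, without end-stage replicate 2 there were 3 and without end-stage replicate 4 there were 2. With only these groups in the fit there were also 0, and without the libraries that carry T11 markers there were 4. The day 3 and end-stage libraries of KPB25L-UV were on different flow cells, so the run and the time cannot be told apart. With a flow cell term, which links them through other groups, 3 were called. The other 5 models had 0 members called with limma. Their medians and shares of all genes called were 0.17 and 0.0192% (0.0144% higher, 0.00480% lower) in T11-UV, 0.03 and 1.97% (0.0767% higher, 1.89% lower) in T11-Apobec and 0.02 and 4.01% (1.92% higher, 2.10% lower) in p53-2336R. In KPB25L (-0.09) and p53-2225L (-0.1) 0% of all genes were called. At an unadjusted p under 0.05 there were 0 in T11-UV, 0 in T11-Apobec, 1 in p53-2336R, 0 in KPB25L and 0 in p53-2225L. With a flow cell term 0 were called in T11-UV, p53-2336R, KPB25L and p53-2225L as well, but the medians were 1.1 in T11-UV (11 at an unadjusted p under 0.05), 0.34 in p53-2336R, -0.26 in KPB25L and -0.17 in p53-2225L.

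The next comparison asks how therapy changed the module, and when. At day 3 the header calls the untreated libraries pretreatment, while labels of some read 3 day post treat. Whether both arms were taken on the same day is thus not settled, and the part of growth in the day 3 differences was not tested. At day 3, the mean of 4 sensitive models (T11-UV, T11-Apobec, KPB25L and KPB25L-UV) had 10 members lower (median -0.32), where 6.92% of all genes were called lower, 6.93% higher and the median of all genes was -0.07. The 10 were 6 of the 10 motors and spindle proteins, all 3 of cytokinesis and Bub1 of the checkpoint. Kif20a, a kinesin of the spindle midzone, differed most (-0.63 ± 0.18, adjusted p = 0.0181), then Aspm and Hmmr (both -0.62) and Kif23 (-0.6 ± 0.19, adjusted p = 0.0258), a subunit of centralspindlin. In T11-Apobec, Kif20a was at 11.41, 10.9, 12.02 and 12.22 with therapy and at 12.72, 12.69, 12.67 and 12.86 without. In KPB25L it was at 12, 9.53, 11.53, 9.76 and 10.44 with therapy and at 11.72, 12.2, 11.83, 12.02 and 11.02 without. The T11-Apobec groups did not overlap, the KPB25L groups did, and in KPB25L-UV the treated values (11.13, 12.1 and 11.66) lay within the untreated ones (11.45, 10.48, 11.26 and 11.96) or above them.

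The module means were uneven too. In KPB25L-UV they were 11.13, 12.14 and 11.74 with therapy and 11.1, 10.4, 11.36 and 11.82 without, with the higher group mean under therapy. With therapy they were 11.93, 10.21, 11.55, 10.32 and 10.61 in KPB25L (untreated 11.55, 12.24, 11.78, 11.96 and 11.21). They were 11.09, 10.59, 11.45 and 11.5 in T11-Apobec (untreated 11.87, 11.74, 11.79 and 11.78) and 11.11, 11.83 and 11.43 in T11-UV (untreated 11.34, 11.77, 11.81 and 11.66). Only in T11-Apobec did each treated library lie below each untreated one. The day 3 calls were not stable: with a flow cell term there were 0 (13 at an unadjusted p under 0.05), with only the groups compared 0 (16), with the length slope 0 (1), and leaving out single libraries gave 0 to 20. Without the KPB25L-UV library with T11 markers there were 12. The 0 came without T11-UV treated replicate 1 or 3, and the 20 without T11-UV treated replicate 2 or KPB25L treated replicate 1. In this contrast the medians of the members from short to long were -0.12, -0.36 and -0.45, beside 0.05, -0.12 and -0.25 for other genes. In the resistant models at day 3, 0 members were called (median -0.03, 0 with an unadjusted p under 0.05), where 0% of all genes were called. With a flow cell term the count was 0 with a median of -0.48 and 18 at an unadjusted p under 0.05, and the T11 arms were on different flow cells. T11 module means were 11.47, 11.73, 11.51 and 11.39 with therapy and 11.45, 11.63, 11.31 and 11.44 without.

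At day 7 the sensitive models as a mean had 36 members lower (median -0.67), where 21.2% of all genes were called lower. Without the 4 KPB25L-UV libraries with T11 markers 37 were. Motors and spindle (10 of 10, median -0.79), cytokinesis (3 of 3, -0.86) and chromatin (4 of 4, -0.66) were lower throughout, as were 9 of 10 regulators (-0.56). Of the checkpoint genes 5 of 7 (-0.56) and of the centromere and kinetochore 5 of 7 (-0.46) were lower. Kif23 (-1.08 ± 0.18, adjusted p = 1.56e-06), Kif20a (-1.03 ± 0.18, adjusted p = 2.93e-06) and Ect2 (-0.94 ± 0.21, adjusted p = 0.000178), which act together at the midzone before cleavage, headed the list. Foxm1 (-0.69 ± 0.18, adjusted p = 0.00138), Plk1 (-0.56 ± 0.16, adjusted p = 0.00356), Aurkb (-0.61 ± 0.15, adjusted p = 0.000528) and Top2a (-0.57 ± 0.15, adjusted p = 0.00171), the topoisomerase that untangles sister chromatids, lay in the middle. With only the groups compared in the fit, the adjusted p was 0.0526 for Foxm1, 0.106 for Plk1 and 0.0532 for Top2a.

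The 5 members not called were Cdk1 (-0.24 ± 0.13, adjusted p = 0.143), Spc25 (-0.19 ± 0.12, adjusted p = 0.229), Pttg1 (-0.09 ± 0.13, adjusted p = 0.598), Birc5 (-0.08 ± 0.15, adjusted p = 0.719) and Ube2c (-0.05 ± 0.17, adjusted p = 0.838). Their coding sequences of 891, 678, 597, 420 and 537 bases are among the 7 shortest of the module, and the other 2, Cenpa and Mad2l1, had small differences with a call (-0.36 ± 0.12 and -0.28 ± 0.11). The medians from short to long members were -0.36, -0.67 and -0.78, and those of other genes 0.09, -0.13 and -0.34. With the length slope as a term, 25 members were lower (median -0.42), and Cdk1 (-0.44 ± 0.13, adjusted p = 0.0113), Spc25, Pttg1 (-0.48 ± 0.11, adjusted p = 0.000402) and Birc5 (-0.41 ± 0.14, adjusted p = 0.0284) were then among them. Mki67 (-0.22 ± 0.13, adjusted p = 0.276), Top2a (-0.24 ± 0.14, adjusted p = 0.272), Foxm1 (-0.33 ± 0.17, adjusted p = 0.211) and Aurkb (-0.38 ± 0.15, adjusted p = 0.0656) were not. This term was added after the values were seen.

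Other genes of the pathway were counted in the same contrast, where 21.2% of all genes were called lower and 15.5% higher. Of 51 other mitosis genes 46 were lower at day 7 (median -0.53), of 35 DNA replication genes 17 were lower and 1 higher (median -0.29), and of 16 genes of the anaphase-promoting complex 8 were lower and 1 higher (median -0.28). Of 14 cell cycle inhibitors 7 were higher and 2 lower (median 0.24), and of 12 DREAM and MuvB regulators, parts of the complexes known to repress or activate cell cycle genes, 4 were lower and 1 higher (median -0.18). T cell markers were higher for 10 of 10 (median 2.41), B cell markers for 4 of 7 (1.01) and macrophage markers for 5 of 8 (0.62), and fibroblast markers were lower for 2 of 8 (-0.43). The lower counts of inhibitors and fibroblast markers were near the share of all genes. The share of these cells in the module's fall was not tested. The change from day 3 to day 7 in the sensitive models was itself not called for any member with limma (median -0.32, 7 with an unadjusted p under 0.05), where 0.532% of all genes were called, 0.504% higher and 0.0288% lower. With a flow cell term the median was -0.59, with 30 at an unadjusted p under 0.05 and 1 called, and without the libraries with T11 markers it was -0.44 with 14 and 0.

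**Figure D3:**
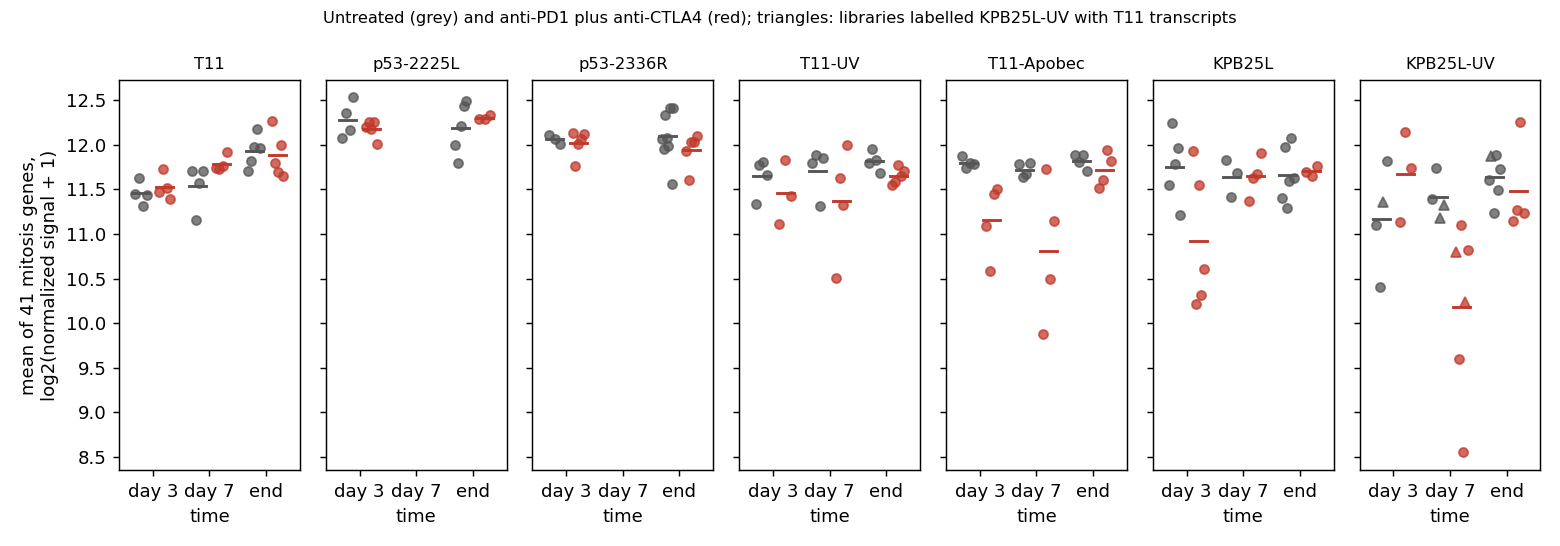
Mean log2(signal + 1) of the 41 members in each library (points), by model, day and arm. At day 7 the treated KPB25L-UV libraries lie at 8.55 to 11.1, all below the untreated ones at 11.18 to 11.74, while treated T11 libraries lie at 11.73 to 11.92.

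The day 7 difference was concentrated in some models. T11, labelled resistant, had 0 members called with limma (0 at an unadjusted p under 0.05) and 41 positive differences (median 0.24), where 0% of all genes were called. Its module means were 11.74, 11.73, 11.76 and 11.92 with therapy and 11.71, 11.16, 11.57 and 11.71 without, so the treated libraries lay above the untreated ones. Mki67 in T11 was at 13.6, 13.15, 13.35 and 13.65 with therapy and 13.27, 12.81, 13.28 and 13.46 without. KPB25L, labelled sensitive, also had 0 called (0 at an unadjusted p under 0.05, median 0.01, 0% of all genes), with 11.37, 11.63, 11.67 and 11.91 with therapy and 11.83, 11.41 and 11.68 without. In that group 2 libraries of 1 mouse were averaged.

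T11-UV had 0 called (6 at an unadjusted p under 0.05, median -0.32, 7.46% of all genes called, 4.31% higher and 3.15% lower). Its treated module means were 10.51, 11.63, 11.32 and 12 and its untreated ones 11.79, 11.89, 11.31 and 11.85. Mki67 ran from 11.38 to 14.06 in treated and from 12.52 to 13.35 in untreated T11-UV tumours, a wider spread under therapy on both sides. The 2 arms of T11-UV were on different flow cells, so in T11-UV tumours the run and the therapy cannot be told apart.

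In T11-Apobec 29 members were lower (median -0.95, 15.7% of all genes called lower), and both arms were on 1 flow cell. The module means were 9.88, 11.73, 10.5 and 11.14 with therapy and 11.78, 11.64, 11.67 and 11.8 without, so 1 treated library lay within the untreated range. Aspm was at 7.96, 10.69, 9.04 and 9.51 with therapy and at 11.14, 11.03, 11 and 10.92 without. All treated values lay below all untreated ones, and the difference was -1.72 ± 0.38 (adjusted p = 0.00035). Cenpf (-1.65 ± 0.37, adjusted p = 0.000336) and Cenpe (-1.64 ± 0.34, adjusted p = 0.000118), the kinetochore motor, followed. Birc5 (0.03 ± 0.29), Ube2c (0.1 ± 0.35) and Pttg1 (-0.06 ± 0.26) did not pass the test. Pttg1 was at 10.46, 11.05, 10.03 and 11.16 with therapy and at 10.66, 10.69, 10.7 and 10.91 without, on both sides of the untreated values.

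In this model the length of the members went with their difference. The medians from short to long were -0.26, -0.95 and -1.29, beside 0.25, -0.19 and -0.66 for other genes. The length slopes of the treated libraries were -0.47, -0.08, -0.18 and -0.37 and those of the untreated ones 0.11, 0.11, 0.08 and 0.03, without overlap, and the treated library with the slope nearest to the untreated ones, replicate 2, was also the one with the highest module mean. With the slope as a term 3 members were lower (median -0.51, 14 at an unadjusted p under 0.05): Plk1 (-1.06 ± 0.34, adjusted p = 0.0418), Ccnb2 (-0.82 ± 0.27, adjusted p = 0.0463) and Pttg1 (-0.9 ± 0.21, adjusted p = 0.00297). Without treated replicate 1 there were 6 calls, and without treated replicate 2 there were 34. T cell marker means were 10.44, 10.63, 9.97 and 10.16 with therapy and 8.26, 7.72, 7.83 and 7.54 without. The groups did not overlap, and the part of T cells in the members' differences was not tested.

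**Figure D4:**
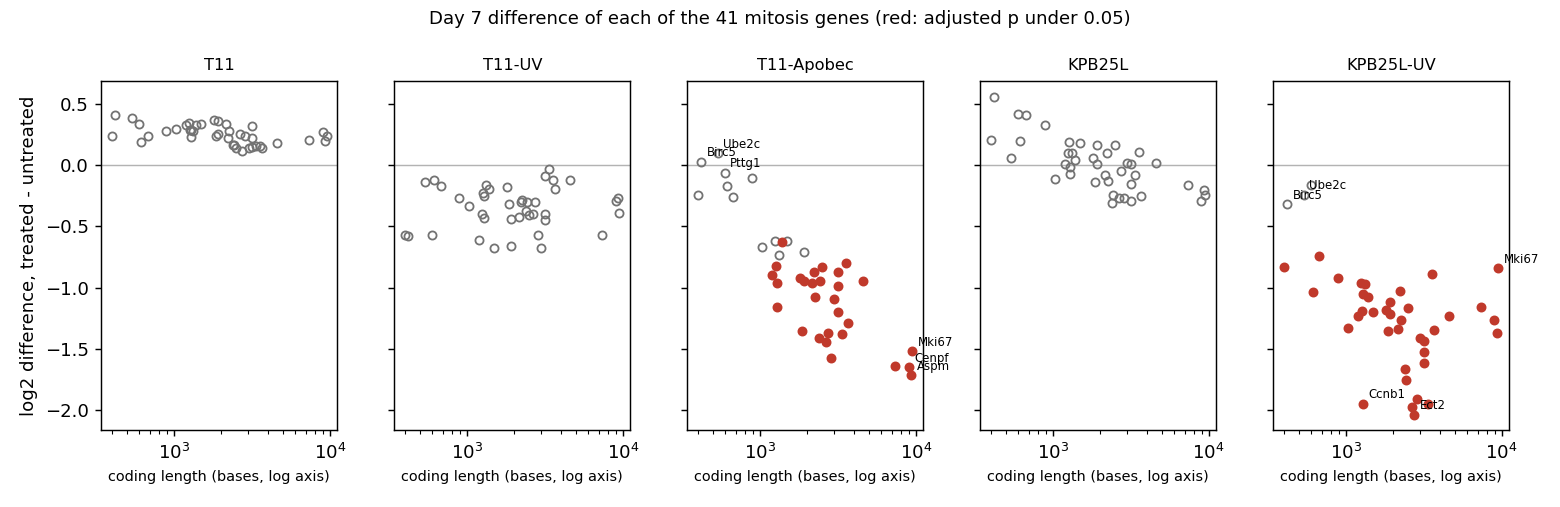
Difference of each member between treated and untreated tumours at day 7, on the log2 scale, against its coding length in bases (log axis), in 5 models, with red points for adjusted p under 0.05. In T11-Apobec the medians of short, middle and long members are -0.26, -0.95 and -1.29, and in KPB25L-UV they are -0.96, -1.22 and -1.37.

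KPB25L-UV had 38 members lower (median -1.22, 11.4% of all genes called lower), again with both arms on 1 flow cell. The module means were 10.8, 9.6, 11.1, 8.55, 10.24 and 10.82 with therapy and 11.39, 11.74, 11.18 and 11.33 without, so every treated library lay below every untreated one, by little or by much. Ect2 was at 10.77, 8.35, 11.36, 7.79, 10.19 and 11.09 with therapy and at 11.91, 12.74, 11.64 and 11.54 without (-2.04 ± 0.38, adjusted p = 7.76e-05, and 0.163 with only these groups in the fit). Kif20a (-1.98 ± 0.33, adjusted p = 1.48e-05) and Anln (-1.95 ± 0.34, adjusted p = 2.96e-05) had like differences. Replicates 2 and 4 were well below the other treated libraries for Ect2. Ube2c was at 12.79, 10.57, 13.16, 13.83, 10.89 and 12.87 with therapy and at 12.84, 13.75, 11.64 and 12.1 without, so that the same replicate 4 had the lowest Ect2 and the highest Ube2c. Ube2c (-0.24 ± 0.32), Birc5 (-0.32 ± 0.27) and Pttg1 (-0.16 ± 0.24) were the 3 members not called.

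Length sorted these members less than in T11-Apobec: the medians from short to long were -0.96, -1.22 and -1.37, beside 0.15, -0.11 and -0.29 for other genes, and with the slope term 37 were lower (median -1.01). Without the libraries that carry T11 markers (treated replicates 1 and 5, untreated replicates 3 and 4) 37 were lower (median -1.54). When the fit held these groups alone, 0 were called (30 at an unadjusted p under 0.05), and 1 of all genes tested was called. T cell marker means were 10.22, 11.6, 9.4, 11.9, 10.41 and 11.1 with therapy and 7.65, 7.84, 9.48 and 9.09 without. The replicates with the highest T cell values, 4 and 2, had the lowest module means, and the part of T cells was not tested.

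The difference between models was then tested directly. Sensitive models as a mean minus T11 gave 0 members with limma (median -0.92, 34 at an unadjusted p under 0.05, smallest adjusted p 0.176), where 0% of all genes were called lower, and without the libraries with T11 markers it gave 0 too (37 at an unadjusted p under 0.05). T11-Apobec minus T11 gave 13 lower (median -1.21, 1.77% of all genes called lower), led by Aspm (-1.92 ± 0.54, adjusted p = 0.0242) and Cenpf (-1.92 ± 0.52, adjusted p = 0.0178). With the slope term 1 was called, Pttg1 (-1.17 ± 0.29, adjusted p = 0.0174), with only these groups in the fit 30 were, without T11-Apobec treated replicate 1 there were 0 and without treated replicate 2 there were 32. It also fell to 1 without T11 untreated replicate 2, to 5 without T11-Apobec treated replicate 3 and to 8 without T11-Apobec untreated replicate 1 or 4. KPB25L-UV minus KPB25L gave 4 lower (median -1.23, 0.230% of all genes called lower): Ccnb1 (-1.88 ± 0.49, adjusted p = 0.0321), Ccna2 (-1.39 ± 0.37, adjusted p = 0.0364), Ttk (-1.34 ± 0.36, adjusted p = 0.0432) and Mad2l1 (-1.24 ± 0.32, adjusted p = 0.0324). Without the libraries with T11 markers 25 were lower, and leaving out single libraries gave 0 to 24, with 0 without KPB25L-UV treated replicate 2 or 4, KPB25L-UV untreated replicate 2 or 4, KPB25L treated replicate 3 or 4 or KPB25L untreated replicate 1 or 4. It was 1 without KPB25L treated replicate 2, 7 without KPB25L-UV untreated replicate 1, and 20, 24, 19 and 16 without KPB25L-UV treated replicate 1, 3, 5 and 6 in turn. T11-UV minus T11 gave 0 with limma (6 at an unadjusted p under 0.05, median -0.56, 0.571% of all genes called).

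At end stage no difference with therapy was called. The sensitive models had a median of -0.09 and the resistant ones of -0.05, with 0 members called with limma and 0 at an unadjusted p under 0.05 in either, where 0.0288% and 0% of all genes were called. Without the libraries with T11 markers the sensitive models had the same counts and median. In T11-UV, T11-Apobec and KPB25L-UV the end-stage arms were on different flow cells, so there the run and the therapy cannot be told apart. KPB25L-UV module means were 11.15, 11.27, 12.25 and 11.24 with therapy and 11.61, 11.87, 11.23, 11.89, 11.49 and 11.73 without, and the groups overlapped.

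Untreated tumours at day 3 were compared to see where the models start. T11 had 11 members lower than KPB25L (median -0.23, 20.4% of all genes called lower, median of all genes -0.14): Aurka (-1.45 ± 0.31, adjusted p = 6.28e-05), Ube2c (-1.35 ± 0.33, adjusted p = 0.000471), Foxm1 (-1.34 ± 0.34, adjusted p = 0.00081), Cenpf, Nek2, Kif11, Aspm, Plk1, Mki67, Melk and Mad2l1. Aurka, the kinase of the spindle poles, was at 11.11, 11.38, 11.08 and 11.14 in T11 and at 12.57, 12.8, 12.71, 12.83 and 12.24 in KPB25L. Foxm1 was at 11.94, 11.89, 11.5 and 11.82 in T11 and at 12.84, 13.86, 13.21, 13.41 and 12.33 in KPB25L. Neither gene overlapped between the models. At the other end, Kif4, a chromosome-bound kinesin, was at 11.02, 11.04, 10.75 and 10.87 in T11 and at 10.1, 10.87, 10.44, 10.54 and 10.07 in KPB25L, a difference of 0.52 ± 0.3 that was not called (adjusted p = 0.194).

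The T11 and KPB25L tumours were on different flow cells, and with a flow cell term, which links them through other groups, 0 members were called (6 at an unadjusted p under 0.05) and the median was 0.87. After centring each library on its median, 6 were higher and 6 lower, so the split depended on the scaling. Without T11 replicate 3 there were 7 calls. The groups also differed in their epithelial markers, 7 of 8 lower in T11 (median -7.27), and the part of cell type in the members' differences was not tested.

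The cultured lines, which are grown without a host, give a second look at this pair, with 1 library each and no test. T cell marker means in the 6 lines were 1.19 to 1.75. The module mean was 10.86 in KPB-25L-CellLine-VALIDATION, 11.83 in KPB_25L_V1_5_CELL_LINE and 11.76 in KPB_EF1A_APOBEC_CELL_LINE. It was 9.66 in T-11-CellLine-VALIDATION, 9.57 in T11_V5_CELL_LINE and 11.52 in T11_EF1A_APOBEC_CELL_LINE. Each T11 line was below its KPB25L counterpart from the same flow cell, by a member median of -1.04 for the parents (the lines labelled VALIDATION), -2.07 for the V5 and V1_5 lines and -0.15 for the EF1A_APOBEC lines, where the medians of 10634 genes with a mean above 6 were -0.15, -0.08 and 0.29. Of the 41 members 23 were lower in all 3 pairs and 0 were higher in all 3, but the share of all genes lower in all 3 is not given here.

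Foxm1 differed most, with 9.43, 11.72 and 9.29 in the parent, EF1A_APOBEC and V5 lines of T11 and 12.84, 13.74 and 13.91 in the parent, EF1A_APOBEC and V1_5 lines of KPB25L. Its pair differences were -3.41, -2.02 and -4.63. Aurka differed by -1.86, -1.73 and -3.38 and Ube2c by -2.13, -1.85 and -3.6, and Melk, a kinase of the same G2 programme, by -2.93, -0.44 and -4.25. Bub1b (1.03, 0.51 and -0.44) and Kif4 (0.37, 1.05 and -1.4) did not have 1 direction. The order of the members in the lines was close to that in the day 3 tumours: across the 41 genes, Pearson's r between the 2 sets of differences was 0.86 and Spearman's rho 0.83, a description over genes that share their libraries and are not independent. All 11 members called lower in T11 tumours were lower in all 3 pairs of lines, beside 23 of all 41 members.

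**Figure D5:**
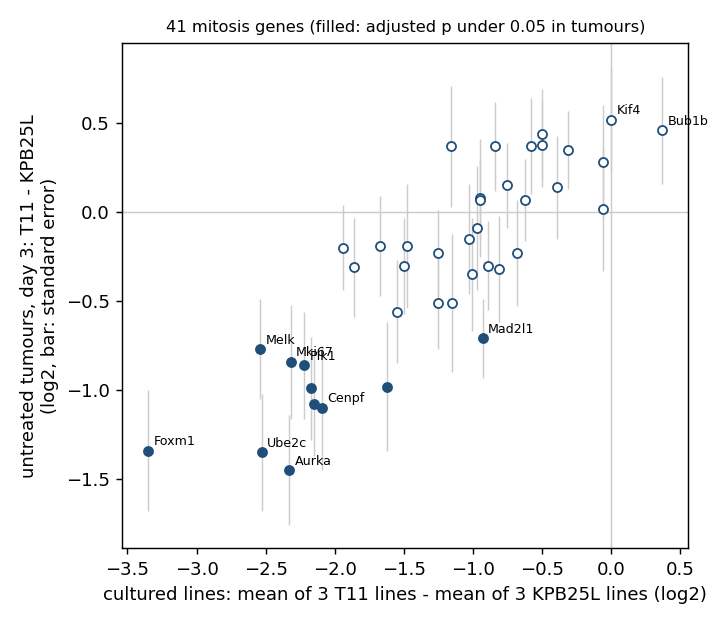
Difference between T11 and KPB25L for each member, on the log2 scale, in day 3 untreated tumours (vertical axis) against the mean difference of the cultured lines (horizontal axis). Foxm1, Aurka and Ube2c lie lowest in tumours at -1.34, -1.45 and -1.35, and across the 41 members r is 0.86.

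The derivatives differed from their parents in fewer members. T11-Apobec had 2 members higher than T11 (3.97% of all genes called higher), Mad2l1 (0.97 ± 0.23, adjusted p = 0.00419) and Nusap1 (0.79 ± 0.24, adjusted p = 0.0361), a microtubule bundling protein, and leaving out any 1 library left 1. With only these groups in the fit there were 27, and with a flow cell term 0, without the share of all genes called in those fits. T11-UV had 0 members called against T11 with limma (0 at an unadjusted p under 0.05, median 0.19, 0.264% of all genes called) and KPB25L-Apobec 0 against KPB25L (3 at an unadjusted p under 0.05, median -0.27, 3.81% of all genes called). With a flow cell term T11-UV against T11, which were on different flow cells, had a median of -2.16, with 24 at an unadjusted p under 0.05 and 0 called. KPB25L-UV had 7 lower than KPB25L (median -0.57, 3.24% of all genes called lower), among them Ect2 (-1.28 ± 0.39, adjusted p = 0.0217) and Ccnb1 (-1.15 ± 0.33, adjusted p = 0.0125). That count was 0 without KPB25L-UV replicate 2, 20 without KPB25L-UV replicate 4, 19 without KPB25L replicate 5 and 1 to 4 without KPB25L replicates 1 to 4 or KPB25L-UV replicate 1. With a flow cell term or only these groups it was 0, and without the library that carries T11 markers it was 8. With the models as replicates, sensitive and resistant models did not differ in any member in untreated day 3 tumours by limma at adjusted p under 0.05 (median -0.34, 8 at an unadjusted p under 0.05, 0% of all genes called), and without T11 3 members were called. Without the library with T11 markers 0 were called (10 at an unadjusted p under 0.05). These replicates are not all independent. Every sensitive model is KPB25L or was derived from KPB25L or T11, while T11 is in the resistant class. The test treats related models as separate. Leaving out T11 does not remove this limit, because the sensitive models remain related among themselves.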

How the data were processed

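Bulk RNA-seq of mouse tumours, glands and cultured lines was deposited as upper-quartile normalized signal per gene, made by the authors, with STAR, SAMtools, Picard, Salmon and build mm10 named in the submitters' processing notes and versions not given in the sources used here. Only 28.2 to 82.8% of the values of a tumour or gland library came within 0.01 of a whole read after scaling, so no count test was used. Of the tissue values, 39 entries with dates for names and 28 whose symbol occurs more than once were dropped, and 27 with dates from the table of lines. Values were analysed as log2(signal + 1), so differences understate changes of low genes.

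Genes above 0 in at least 4 samples and in the upper 66.7% by mean were fitted with limma 3.58.1 (R 4.3.3, lmFit and eBayes with a mean trend) with Benjamini-Hochberg adjustment over all genes tested. Time, therapy and model comparisons used 192 samples in 47 groups (20848 genes), end-stage and gland comparisons 105 samples in 15 groups (21364 genes), and the class comparison 12 model means (18480 genes). Libraries of 1 mouse were averaged. The labels do not all say that samples of a group come from separate animals, so p-values measure the spread between these samples. For each gene the groups of a fit share the same estimate of that spread. Standard errors and p-values can therefore understate the spread of a group that varies more than the rest, such as some treated groups of day 7. The fit was tested on simulated data. Coding lengths are the longest coding sequence per gene in GENCODE vM21, and 91.9% of genes in the slope's range had one.

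The members and lists were chosen with earlier results of these data known. Named genes were a panel (Mki67, Ccnb1, Ccnb2, Cdk1, Plk1, Aurkb, Top2a, Foxm1, Birc5, Cdc20) and the 3 largest and 3 smallest differences of each comparison, and others were named after their values were seen. Alternatives were another pseudocount, no filter, centring on each library's median, only the groups compared, a flow cell term, leaving out KPB25L-UV libraries with T11 markers, single libraries left out and, added after seeing the data, a length slope term. Percentages of all genes called belong to the main fits. Most counts from the alternatives are given without such a share, so they do not show how far the members exceed all genes there.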

Additional observations from a re-analysis of the deposited data

Results flagged for a closer look

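Of 42 groups of 4 to 10 libraries whose module mean was checked for a library far from the rest, 3 held one, where chance gives about 1 in 20. KPB25L-UV treated replicate 3 at end stage was at 12.25, with the nearest other library at 11.27, in a group whose mouse numbers recur in T11-UV tumours of day 7. T11 treated replicate 4 at day 7 was at 11.92, with the nearest at 11.76. T11-UV untreated replicate 3 at day 7 was at 11.31, below the others, of which the lowest was 11.79.

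In 2 pairs of models the response to therapy at day 7 differed by a direct test: 13 members had a lower difference in T11-Apobec than in T11 (1.77% of all genes called lower), and 4 in KPB25L-UV than in KPB25L (0.230%). The first count was 1 with the length slope term and 0 without T11-Apobec treated replicate 1. The other was 0 with only the groups compared in the fit and 0 without any 1 of 8 libraries, named with the result.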

How the results depend on the processing

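No paired analysis was possible because replicate numbers were given in accession order and pair no samples. Counts of members called that moved by over 1.5 times follow, and for these the cause was not tested. For therapy at day 7 in KPB25L-UV minus KPB25L (4), pseudocount 16 gave 12, centring 18, only the groups compared 0, a flow cell term 9, leaving out libraries with T11 markers 25 and the length slope term 18. For therapy at day 3 in sensitive models (10), no filter gave 5, centring 5, and only the groups compared, a flow cell term and the length slope term 0 each. Centring gave 1 for growth over 7 models, 23 for growth of KPB25L-UV, 1 for T11-Apobec versus T11, 23 for KPB25L-UV versus KPB25L, 1 for KPB25L-Apobec versus KPB25L and 0 for the glands. Only the groups compared gave 6 for growth over 7 models, 32 in T11, 4 in T11-Apobec and 0 in KPB25L-UV, 0 for therapy at day 7 in KPB25L-UV, 30 for T11-Apobec minus T11, 27 for T11-Apobec versus T11, and 0 for KPB25L-UV versus KPB25L and for the glands. A flow cell term gave 3 for growth of KPB25L-UV, 1 for day 7 minus day 3, and 0 for T11 versus KPB25L, T11-Apobec versus T11, KPB25L-UV versus KPB25L and the glands. The length slope term gave 1 for growth of p53-2336R, 1 for therapy at day 7 in T11-UV, 3 in T11-Apobec and 1 for T11-Apobec minus T11. The flow cell term could not be fitted for the contrasts with PyMT, tumours versus glands, growth over 7 models, growth of T11-Apobec or the class comparison.

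Leaving out single libraries gave 0 to 10 for the glands, 0 to 20 for therapy at day 3 in sensitive models (14 of 32 libraries moved it), 0 to 24 for KPB25L-UV minus KPB25L, 6 to 34 for T11-Apobec at day 7, 0 to 32 for T11-Apobec minus T11, 0 to 2 for T11-UV at day 7 (2 without treated replicate 3), 0 to 20 for KPB25L-UV versus KPB25L, 7 to 12 for T11 versus KPB25L, 1 to 1 for T11-Apobec versus T11, 0 to 15 for growth of KPB25L-UV and 0 to 1 for growth of p53-2336R, and leaving out single models 0 to 3 for the class comparison. Over single named members, 2435 alternative values kept direction and call, 94 lost a call, 30 gained one and 57 changed sign.

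Signs changed as follows. With the length slope term, Ube2c was at 0.3 in C3-TAG versus PyMT, and at day 3 Birc5 was at -0.03, Cdc20 -0.04, Cdk1 -0.05, Pttg1 -0.11 and Top2a 0.02. With that term Birc5 was at -0.68 and Ube2c at -0.55 in T11-Apobec at day 7. With centring, Ube2c was at -0.02 in KPB-Primary versus PyMT, Plk1 at 0.06 at day 3, and Birc5 at 0.11 and Ccnb2 at 0.1 in T11 versus KPB25L. With a flow cell term, Plk1 was at 0.11 at day 3 and Birc5 at 0.06 and Pttg1 at 0.03 at day 7 in the sensitive models. With that term in T11 versus KPB25L, Aurka was at 0.36, Aurkb 0.53, Birc5 0.43, Ccnb2 0.98, Cdk1 0.5, Foxm1 0, Mki67 0.87, Plk1 0.66, Top2a 0.39 and Ube2c 0.25. Leaving out single libraries gave ranges that cross 0. They were -0.04 to 0.11 for Cdc20 and -0.11 to 0.05 for Plk1 at day 3, and -0.14 to 0.04 for Ube2c at day 7 in the sensitive models. In T11-Apobec at day 7 they were -0.14 to 0.27 for Birc5, -0.24 to 0.08 for Cdk1, -0.23 to 0.15 for Pttg1 and -0.08 to 0.31 for Ube2c. They were -0.55 to 0.15 for Ube2c in KPB25L-UV at day 7 and -0.1 to 0.23 for Ccnb1 in T11 versus KPB25L.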
